A study of Arabidopsis thaliana with 12 samples.

Results

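The berberine bridge enzyme-like genes of Arabidopsis encode oxidases with a covalently bound flavin, named after an enzyme of alkaloid synthesis in poppies. Most carry a signal for secretion and act in or near the cell wall. Members of the family are known to oxidise monolignols, the alcohols from which lignin is made, or fragments of pectin and cellulose, and other members act in defence metabolism. Of 10 listed loci of the family, 9 had a probe set of their own on the ATH1 array, out of 22746 probe sets tested. Each of the 9 had 1 probe set, so the rule that takes the probe set with the highest mean over the 12 arrays had nothing to choose. AT2G34790 (MEE23), whose product is known to oxidise monolignols, was not analysed here.

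The arrays came from inflorescence stems of wild-type Columbia and of plants carrying the wox4-1 allele of WOX4, a homeobox gene with a known role in cambium activity. Each line was sampled at the stem base and in its first internode, which gave 4 groups of 3 arrays. Each array held RNA from a pool of 13 to 17 stem pieces of 0.5 cm, cut from plants 49 to 58 days old and 15 to 20 cm tall, and the internode pieces came from 1.5 to 2.0 cm over the rosette. All plants had first grown in short days and were then moved to long days. The labels call the arrays biological replicates. They give neither the kind of the wox4-1 allele nor the ecotype of the mutant.

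The values are log2 expression values (RMA) per probe set. A change was called at an adjusted p under 0.05 (limma, Benjamini-Hochberg over 22746 probe sets), and "rose" and "fell" are used for called changes. Errors are SD over the 3 arrays of a group for levels and the standard error of limma (SE) for changes. The loci were listed with earlier results of these data known, so the p-values are the fit's description of these arrays and no independent evidence.

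Some arrays stood apart. For actin, the control probe set at the 3′ end exceeded the 5′ one by log2 2.26 on wox4-1 internode replicate 2, and by 1.22 to 1.51 on the other 11 arrays. For GAPDH, the same difference was log2 0.52 on that array and -0.17 to 0.09 on the other 11. At the base, the actin difference was 1.47 ± 0.04 (SD, n = 3) in wild type and 1.29 ± 0.06 in wox4-1. Both wild-type replicate 2 arrays lay farthest out on the second principal component, at 29.8 and 23.7, and wox4-1 base replicate 1 lay at -23.2. That component also separated the lines, with wild-type arrays at 1.26 to 29.8 and wox4-1 arrays at -23.2 to -5.13. Of the genes listed for stem tissues, 4 of 8 for photosynthetic tissue and 3 of 8 for the cambium had a probe set of their own. None of the 20 listed for xylem, phloem and epidermis did, so the labelled tissue could be checked only that far. The 3 cambium genes (CLE41, CLE44 and MOL1) act in cambium signalling, and whether their levels follow the amount of cambium was not tested.

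Of the 9 measured loci, 4 had a called change in at least 1 of the 4 comparisons and 5 had none. Single comparisons called 0.242% to 24.5% of all probe sets. The share called in at least 1 was not computed, so nothing is read from this count. AT5G44400 was higher in wox4-1 than in wild type at both positions. AT2G34810 was lower in wox4-1 at both positions, and its base change stayed called in 12 of 18 alternatives. The estimate was larger in the internode, a difference that was not called (limma adjusted p 0.569). AT1G30760 had its lower levels at the base in both lines, and was higher in wox4-1 at the base. AT5G44410 was higher at the base of wild type than in its internode. For none of the 9 loci was a difference between the genotype effects at the base and in the internode called.

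**Figure D1:**
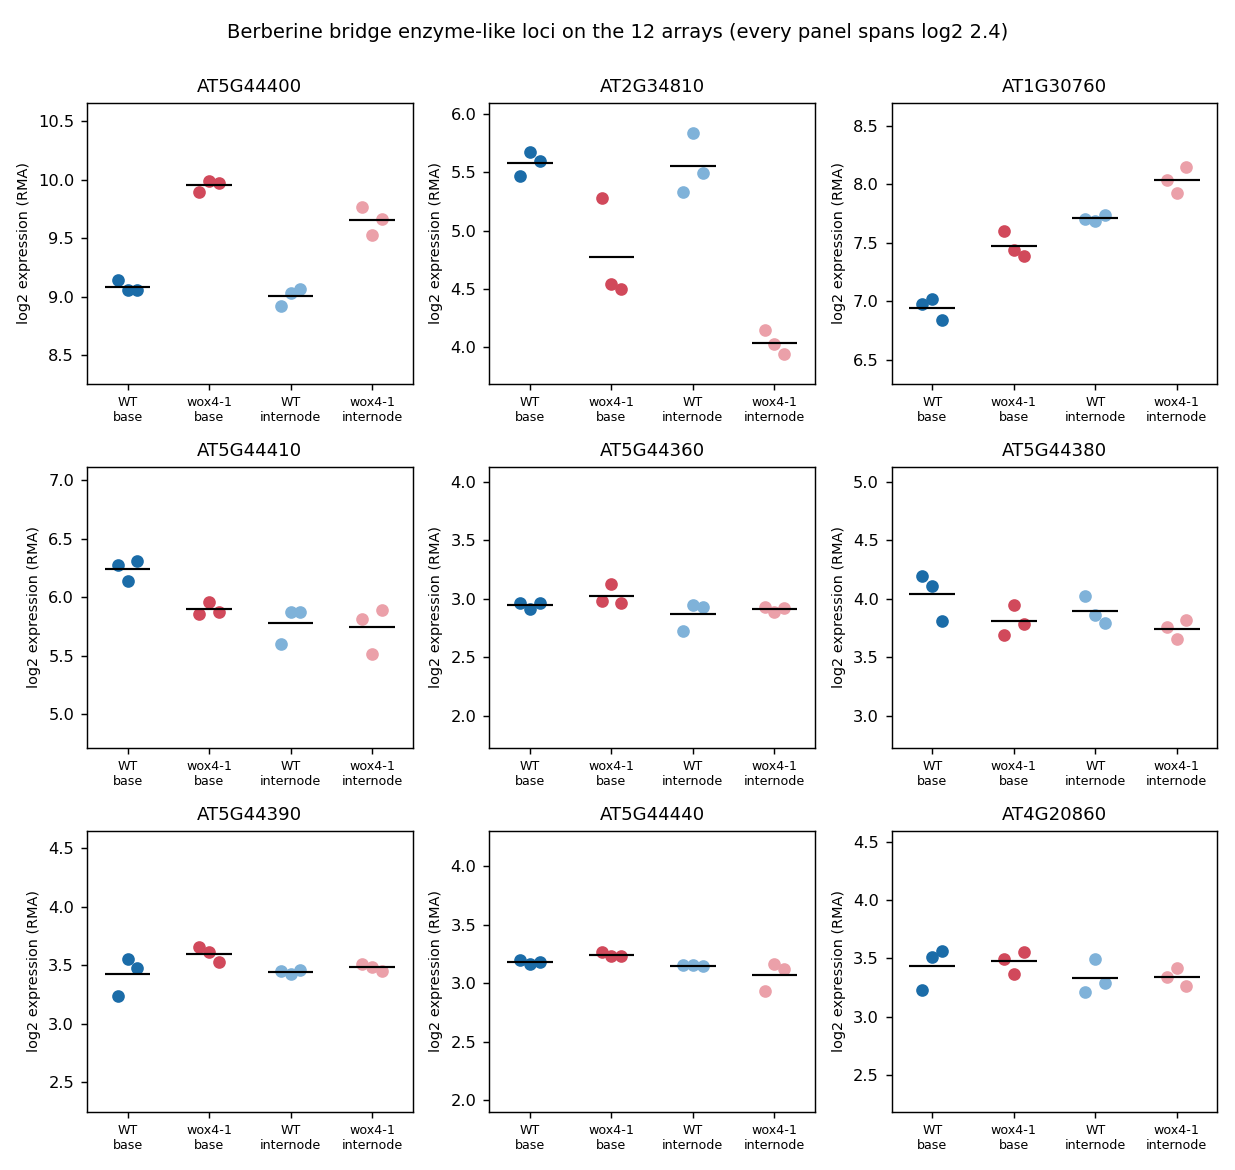
Log2 expression (RMA) of the 9 measured loci on the 12 arrays, with 1 point per array, a line at each group mean (n = 3) and every panel spanning the same range of log2 values. The wox4-1 arrays of AT5G44400 lie above all wild-type arrays, those of AT2G34810 lie below them, and the lower 5 panels show group means that differ by at most 0.30.

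AT1G30760 encodes an oxidase known to turn monolignols into the matching aldehydes. At the base its log2 values were 6.97, 7.02 and 6.84 in wild type and 7.60, 7.44 and 7.38 in wox4-1. In the internode they were 7.71, 7.69 and 7.74 in wild type and 8.03, 7.92 and 8.15 in wox4-1. The 4 groups did not overlap, and their levels ranked upward in the order wild-type base, wox4-1 base, wild-type internode, wox4-1 internode.

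Between positions, AT1G30760 fell at the wild-type base by log2 -0.77 (SE 0.09, limma adjusted p 3.87e-05), a level 1.70-fold lower than in the internode. In wox4-1 it fell by log2 -0.56 (SE 0.09, limma adjusted p 0.00041), or 1.48-fold. Between lines it rose in wox4-1 at the base by log2 0.53 (SE 0.09, limma adjusted p 0.0045), or 1.45-fold. In the internode the change of AT1G30760 was 0.33 (95% interval 0.14 to 0.51, limma adjusted p 0.19) and was not called. The difference between these genotype effects was 0.21 (95% interval -0.06 to 0.47). All 3 wox4-1 internode arrays lay above all 3 wild-type ones. Such separation also occurred in 6 of 20 comparisons of the 5 loci with no called change, so nothing is read from it. Its share over all probe sets was not computed.

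Photosynthesis markers moved with position in the same direction as AT1G30760. All 4 measured markers of photosynthetic tissue fell at the base of wild type, with LHCB4.1, of light harvesting, at log2 -0.49 and PRK, of carbon fixation, at -0.98, and all 4 fell in wox4-1. The log2 of their summed level was 13.32 to 13.43 at the wild-type base, 13.45 to 13.68 at the wox4-1 base, 14.01 to 14.14 in the wild-type internode and 14.05 to 14.22 in the wox4-1 internode. PYK10, a glucosidase gene and the 1 measured of 5 markers of starch sheath and root endodermis, rose at the base by log2 0.87 in wild type and 1.04 in wox4-1. The part of these markers in the position change of AT1G30760 was not tested. None of the 4 was called between lines at the base, where the changes were 0.14 to 0.32 and 2 had an unadjusted p under 0.05 in limma. In the internode none was called either, the changes were 0.05 to 0.25, and 1 had an unadjusted p under 0.05. In a stem fragment, fewer cells of a type and less RNA per cell cannot be told apart.

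AT4G20860 encodes an oxidase known to act on fragments of cellulose. Its values lay between 3.22 and 3.56 on all 12 arrays, and the 4 groups overlapped. The changes of AT4G20860 in the 4 comparisons were 0.01 to 0.13, none of them called. The 95% interval at the base between lines was -0.18 to 0.26.

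AT2G34810 encodes a family member whose transcript is known to respond to jasmonate, the wound hormone. In wild type its log2 values were 5.46, 5.67 and 5.60 at the base and 5.33, 5.84 and 5.49 in the internode. In wox4-1 they were 5.27, 4.54 and 4.50 at the base and 4.15, 4.03 and 3.94 in the internode. All 6 wox4-1 arrays lay below all 6 wild-type arrays, and wox4-1 base replicate 1 lay closest to them.

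In the internode, AT2G34810 fell in wox4-1 by log2 -1.52 (SE 0.18, limma adjusted p 0.00355), or 2.86-fold. By p it ranked 6 among all 22746 probe sets of that comparison. The wox4-1 internode values of 3.94 to 4.15 lay within the range of the 5 loci with no called change (2.72 to 4.20). How far the low end of the signal enters the size of this change was not tested. Without wox4-1 internode replicate 2 the change was log2 -1.51 (limma adjusted p 0.0225), and without both wild-type replicate 2 arrays it was log2 -1.37 (adjusted p 0.0274).

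At the base, AT2G34810 fell in wox4-1 by log2 -0.80 (SE 0.18, limma adjusted p 0.0233), or 1.74-fold. This call was lost when 1 of 4 base arrays was left out, namely replicate 2 (adjusted p 0.0949) or 3 (0.0628) of wild type and replicate 2 (0.0545) or 3 (0.0865) of wox4-1. It was also lost without both wild-type replicate 2 arrays (adjusted p 0.0811) and with only the 2 groups compared in the fit (0.0732). Across 18 alternatives the change lay between log2 -1.05 and -0.67. The actin control moved with the lines at the base, as given above. So did CLE44, a signal peptide gene from the cambium list, which rose in wox4-1 at the base by log2 0.48 (limma adjusted p 0.0275). That call was lost without any 1 of the 3 wild-type base arrays and without wox4-1 base replicate 1. It was also lost without both wild-type replicate 2 arrays and with only the 2 groups compared. In these alternatives the adjusted p was 0.0583 to 0.102. CLE41 and MOL1, the other measured genes of that list, were not called between lines. At the base MOL1 went the other way, by log2 -0.29, and CLE41 changed by 0.13. The log2 of the summed level of these 3 genes was 9.86 to 9.94 at the wild-type base and 9.87 to 10.14 at the wox4-1 base. In the internode it was 9.55 to 9.70 in wild type and 9.57 to 9.77 in wox4-1. What part actin and these genes have in the differences between lines was not tested.

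The genotype effect on AT2G34810 was smaller at the base than in the internode by log2 0.71 (95% interval 0.17 to 1.26). This difference had an unadjusted p of 0.0138 in limma and an adjusted p of 0.569, and was not called. The same difference appears between the position effects. AT2G34810 rose at the base of wox4-1 by log2 0.73 (SE 0.18, limma adjusted p 0.00881), and by 0.48 without wox4-1 base replicate 1 (adjusted p 0.0196). In wild type the change was 0.02 (95% interval -0.36 to 0.40).

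Of the 10 listed loci, 6 lie on chromosome 5, and all 6 were measured. In the order of the RefSeq gene table (TAIR10.1), AT5G44380, AT5G44390, AT5G44400 and AT5G44410 follow each other with no annotated gene between them. AT5G44360 and AT5G44440 lie on either side, and the defensin genes PDF1.2 (AT5G44420) and PDF1.2c precede AT5G44440. The substrates of these 6 oxidases are not stated here. Near-identical copies can share probe signal, which was not examined here.

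AT5G44400 had log2 values of 9.14, 9.06 and 9.06 at the wild-type base and 9.90, 9.99 and 9.98 at the wox4-1 base. In the internode its values were 8.93, 9.03 and 9.07 in wild type and 9.76, 9.53 and 9.67 in wox4-1. All 6 wox4-1 arrays lay above all 6 wild-type arrays, with SDs of 0.05 to 0.12 within groups.

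At the base, AT5G44400 rose in wox4-1 by log2 0.87 (SE 0.08, limma adjusted p 0.000176), or 1.82-fold. In the internode it rose by log2 0.64 (SE 0.08, limma adjusted p 0.00564), or 1.56-fold. By p, AT5G44400 ranked 8 among all probe sets in each of these comparisons. Over 19 alternatives its change stayed called, at 0.85 to 0.93 at the base and 0.59 to 0.71 in the internode. The difference between the genotype effects on AT5G44400 was 0.22 (95% interval -0.02 to 0.47) and was not called.

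With position, AT5G44400 rose at the wox4-1 base by log2 0.30 (SE 0.08, limma adjusted p 0.0157). That call was lost without wox4-1 internode replicate 2, the array with the high actin difference (log2 0.24, adjusted p 0.0698), and with only the 2 groups compared (adjusted p 0.0554). In wild type the change of AT5G44400 with position was 0.08 (95% interval -0.10 to 0.25) and was not called.

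AT5G44410, the next gene, had log2 values of 6.27, 6.14 and 6.31 at the wild-type base and 5.60, 5.88 and 5.88 in the wild-type internode. At the wox4-1 base its values were 5.86, 5.96 and 5.88, and in the wox4-1 internode 5.82, 5.52 and 5.89. The wild-type base arrays lay above the other 9 arrays, which overlapped.

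AT5G44410 rose at the wild-type base over the internode by log2 0.46 (SE 0.11, limma adjusted p 0.00909), or 1.37-fold, and stayed called in all 20 alternatives. In wox4-1 the change with position was 0.16 (95% interval -0.08 to 0.39) and was not called. The difference between these position effects, wox4-1 minus wild type, was log2 -0.30 (95% interval -0.63 to 0.03, limma adjusted p 0.659). It was not called. Between lines at the base the change of AT5G44410 was log2 -0.34 (95% interval -0.58 to -0.11, limma adjusted p 0.0885), and in the internode -0.04 (-0.28 to 0.19). The adjacent gene AT5G44400 had genotype changes of 0.87 at the base and 0.64 in the internode, and the difference between both genes was not tested.

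AT5G44360, AT5G44380, AT5G44390 and AT5G44440 complete the chromosome 5 set. Together with AT4G20860 they gave values between 2.72 and 4.20 on all arrays, and 4 of these 5 loci had a mean below the lower quartile of all probe sets (log2 3.62). Their group means spanned 0.14 to 0.30. Their changes in the 4 comparisons lay between -0.23 (AT5G44380, wox4-1 over wild type at the base) and 0.18, with no adjusted p under 0.114 in limma. With each array centred on its median, AT5G44440 was called higher at the wox4-1 base than in the internode (log2 0.26, adjusted p 0.0218), against 0.17 (adjusted p 0.114) as deposited.

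**Figure D2:**
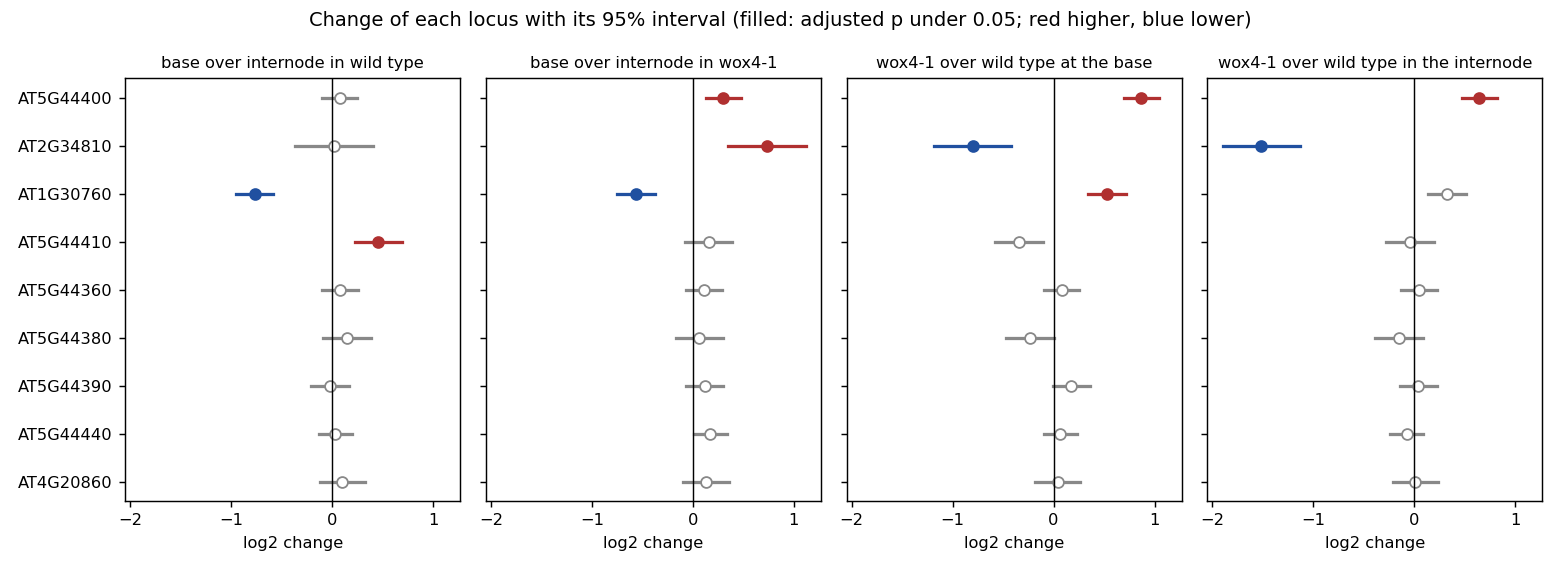
Log2 change of each measured locus in the 4 comparisons, with 95% intervals from limma and filled points for called changes. AT5G44400 and AT2G34810 have called genotype changes at both positions and in opposite directions, and AT1G30760 has called position changes in both lines.

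The count of called loci was set beside the share of all probe sets called. In wild type, 1 of 9 loci rose and 1 fell with position, where 19.7% of all probe sets were called (9.6% higher, 10.1% lower). In wox4-1, 2 rose and 1 fell with position, where 24.5% were called (11.4% higher, 13% lower). Between lines, 2 rose and 1 fell at the base, where 5.04% were called (2.52% higher, 2.51% lower). In the internode, 1 rose and 1 fell, where 0.242% were called (0.11% higher, 0.132% lower). Both loci called in the internode were put on the list with earlier results known, so nothing is read from this excess. The median change of the 9 loci was 0.08, 0.13, 0.07 and 0.01 in these comparisons, against 0.01, 0.04, 0.02 and 0.0046 over all probe sets. For the difference between genotype effects, 0.0044% of probe sets and 0 of 9 loci were called by limma, and 1 locus (AT2G34810) had an unadjusted p under 0.05.

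Neighbouring genes on chromosome 5 were measured too. AT5G44350, which lies next to AT5G44360, rose at the base by log2 0.30 in wild type (SE 0.09, limma adjusted p 0.037) and by 0.59 in wox4-1 (adjusted p 0.000532). The wild-type call was lost in 8 of 19 alternatives, with adjusted p up to 0.249. PDF1.2 was not called in any comparison, with changes between -0.33 and 0.29, and AT5G44450 and CML43, beyond AT5G44440, were not called either. Next to AT2G34810, AT2G34820 had a genotype change of 0.28 at the base (limma adjusted p 0.105) and 0.08 in the internode, both opposite in sign to those of AT2G34810. AT1G30780, near AT1G30760, was not called in any comparison. TPP2, next to AT4G20860, fell at the wox4-1 base relative to the internode by log2 -0.57 (adjusted p 0.012). Between lines at the base TPP2 differed by log2 -0.46 (limma adjusted p 0.0892), and was called lower in wox4-1 without wox4-1 base replicate 2 (0.0401) and with the replicate block across groups (0.0493).

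**Figure D3:**
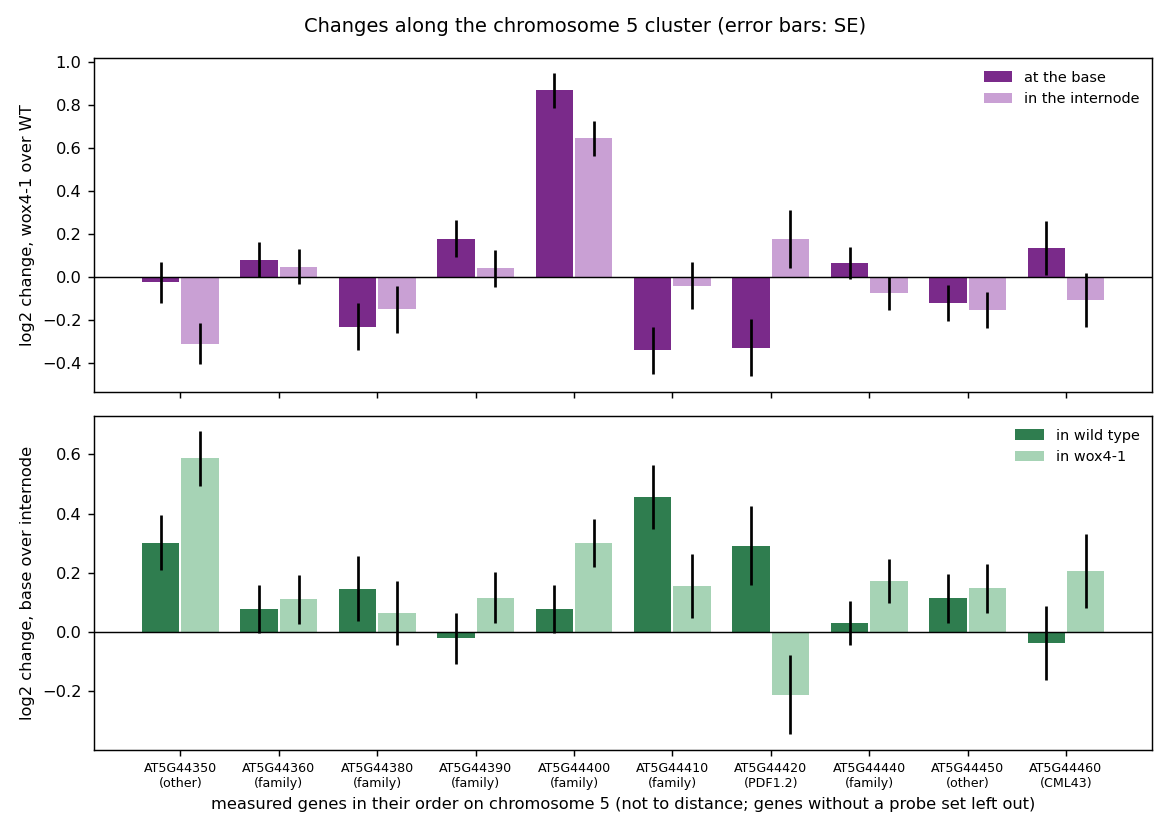
Log2 changes of the measured genes around the chromosome 5 loci in their order on the chromosome, between lines (top) and between positions (bottom), with bars for the changes and error bars for the standard error of limma. In the top panel the bars of AT5G44400 (0.87 and 0.64) stand above those of the adjacent family genes AT5G44390 and AT5G44410.

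Of the 17 other loci of the family, 13 had a probe set of their own. Of these, 12 gave values between 2.53 and 3.53 on all arrays, with changes between -0.23 and 0.17 and no call. AT4G20830, which encodes an oxidase of pectin fragments (oligogalacturonides), had log2 values of 5.18, 5.67 and 5.46 at the wild-type base and 5.89, 6.45 and 6.90 in the wild-type internode. In wox4-1, AT4G20830 had 5.70, 5.53 and 5.47 at the base and 5.92, 5.59 and 6.66 in the internode. It fell at the wild-type base by log2 -0.98 (SE 0.26, limma adjusted p 0.0163). This call was lost without wild-type internode replicate 3 (adjusted p 0.0809), without wild-type base replicate 1 (0.0667) and without both wild-type replicate 2 arrays (0.0545). Between lines, none of the 13 was called by limma at the base, where 0 had an unadjusted p under 0.05, or in the internode, where 2 did.

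Genes that act on the same compounds were read from lists. Of 7 genes for the glycosylation of monolignols or the release of their glucosides, all 7 were measured. At the wild-type base 2 rose and 1 fell (median 0.06): BGLU47 by log2 0.74 and BGLU46 by 0.31 rose, while BGLU45, a glucosidase of monolignol glucosides, fell by log2 -1.50. The BGLU46 call was lost without wild-type base replicate 2 or 3, without wild-type internode replicate 2 or 3 and without both wild-type replicate 2 arrays, with adjusted p from 0.0739 to 0.17. At the wox4-1 base, UGT72E2 (0.54) and BGLU47 (0.41) rose over the internode and BGLU45 fell (log2 -1.61). Between lines at the base UGT72E2, a glucosyltransferase of monolignols, rose by 0.46 (limma adjusted p 0.0384) and BGLU46 fell by log2 -0.58 (adjusted p 0.00281). The UGT72E2 call was lost in 9 of 18 alternatives, with adjusted p up to 0.132. In the internode none of the 7 was called by limma between lines, and 1 had an unadjusted p under 0.05.

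Of 25 laccase and lignin peroxidase genes, 7 were measured. AT5G64120, a peroxidase gene, fell at the base by log2 -1.85 in wild type (limma adjusted p 0.00303) and -1.47 in wox4-1 (0.0109), and no other was called in any of the 4 comparisons. Between lines 0 of 7 were called by limma, and 2 had an unadjusted p under 0.05 at each position. At the base AT5G64120 differed between lines by log2 1.14 (95% interval 0.34 to 1.93, limma adjusted p 0.0948), and was called higher in wox4-1 with the replicate block across groups (adjusted p 0.0386) and with only the 2 groups compared (0.0181). Of 19 monolignol synthesis genes, HCT and CCR2 were measured and neither was called. Of 4 measured genes for the cleavage or sensing of pectin, out of 15, the polygalacturonase gene AT1G48100 rose at the base by 2.22 in wild type and 1.27 in wox4-1, and none of the 4 was called between lines. At the base AT1G48100 differed between lines by log2 -0.64 (95% interval -1.04 to -0.23, limma adjusted p 0.0684). It was called lower in wox4-1 with the replicate block across groups (adjusted p 0.0349), without wild-type base replicate 3 (0.0457) and without wox4-1 internode replicate 3 (0.0448).

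Of 33 jasmonate genes, 4 were measured by name, which were PDF1.2, PDF1.2b, THI2.1 and JMT. PDF1.2b, a defensin gene with near-identical copies, rose at the base by 2.84 in wild type (SE 0.55, limma adjusted p 0.00238) and by 1.88 in wox4-1 (adjusted p 0.0232). The wox4-1 call was lost without wox4-1 base replicate 2, without wox4-1 internode replicate 1 or 3 and with the robust option of eBayes, with adjusted p from 0.082 to 0.0919. Between lines 0 of the 4 were called by limma at the base, where 1 had an unadjusted p under 0.05, and 0 in the internode, where 0 did.

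Genes whose values most resembled those of a member were sought among the probe sets with 1 gene and group means spanning at least log2 0.5 (2332 or 2333 candidates, as a locus was not compared with itself), by Pearson's r over the 12 arrays. Differences between the 4 groups and the spread within groups both enter these correlations. They share the arrays and their normalization, and are descriptions.

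Most like AT2G34810 were AT1G54020, which encodes a GDSL-type lipase (r = 0.91, Spearman's rho = 0.94, n = 12), AT3G47800 (r = 0.89), AT5G48480 (r = 0.88), AT5G62550 (r = 0.88) and AT5G05600, which encodes an enzyme that oxidises jasmonate (r = 0.88). In AT1G54020 the difference between lines was log2 -1.99 at the base and -2.58 in the internode, both called. In AT5G05600 it was -0.48, not called, and -0.87, which was called. The internode call of AT5G05600 stayed in 7 of 18 alternatives, with limma adjusted p up to 0.193. The gene least like AT2G34810 was YUC6, of auxin synthesis (r = -0.88). Within groups, after the group means were taken off, r with the 5 most like genes was 0.20 to 0.52.

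Most like AT5G44400 were AT5G13400 (r = 0.93), AT3G15650 (r = 0.92), the peroxidase gene AT3G28200 (r = 0.92), AT4G23820, of the pectin lyase-like family (r = 0.91), and AT5G35740 (r = 0.90). In AT5G13400 the difference between lines was 0.67 at the base and 0.32 in the internode. In AT4G23820 it was 1.04 and 0.44, where AT5G44400 had 0.87 and 0.64. The base changes of AT5G13400 and AT4G23820 were called and their internode changes were not. Within groups, r of the 5 most like genes with AT5G44400 ranged from -0.33 to 0.35. The least like was AT5G17270 (r = -0.94).

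Most like AT1G30760 were AT4G02530 and AT3G47070, both of which encode thylakoid proteins (r = 0.97 each), AT1G21500 (r = 0.97), AT5G08050 (r = 0.97) and AT2G43560, for an immunophilin-type isomerase (r = 0.96). Within groups, r with these 5 genes was 0.06 to 0.84. Between lines at the base they were higher in wox4-1 by log2 0.26 to 0.50. There AT1G21500 (called in 19 of 19 alternatives), AT3G47070 (12 of 19) and AT2G43560 (11 of 19) were called. AT4G02530 and AT5G08050 were not. In the internode the changes were 0.23 to 0.30, and none was called. The least like was AT2G28790, of the thaumatin family, with r = -0.98. Its group means ran in the opposite order, from 9.72 at the wild-type base to 8.16 in the wox4-1 internode.

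Most like AT5G44410 were AT1G61280, SQN (AT2G15790), AT1G78895, AT2G20550 and AT4G38660, with r of 0.86 to 0.90 (0.47 to 0.81 within groups). Least like was AT3G18170 (r = -0.90). For the other 5 loci, whose group means differed by at most 0.30, the highest r was 0.78 to 0.85. The first-placed genes were AT3G18930 for AT5G44360, AT3G23620 for AT5G44380, CML23 for AT5G44390, AT1G62770 for AT5G44440 and CHL for AT4G20860. Within groups, r of these 5 loci with their most like genes was 0.30 to 0.95, and 0.79 to 0.95 for AT4G20860.

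**Figure D4:**
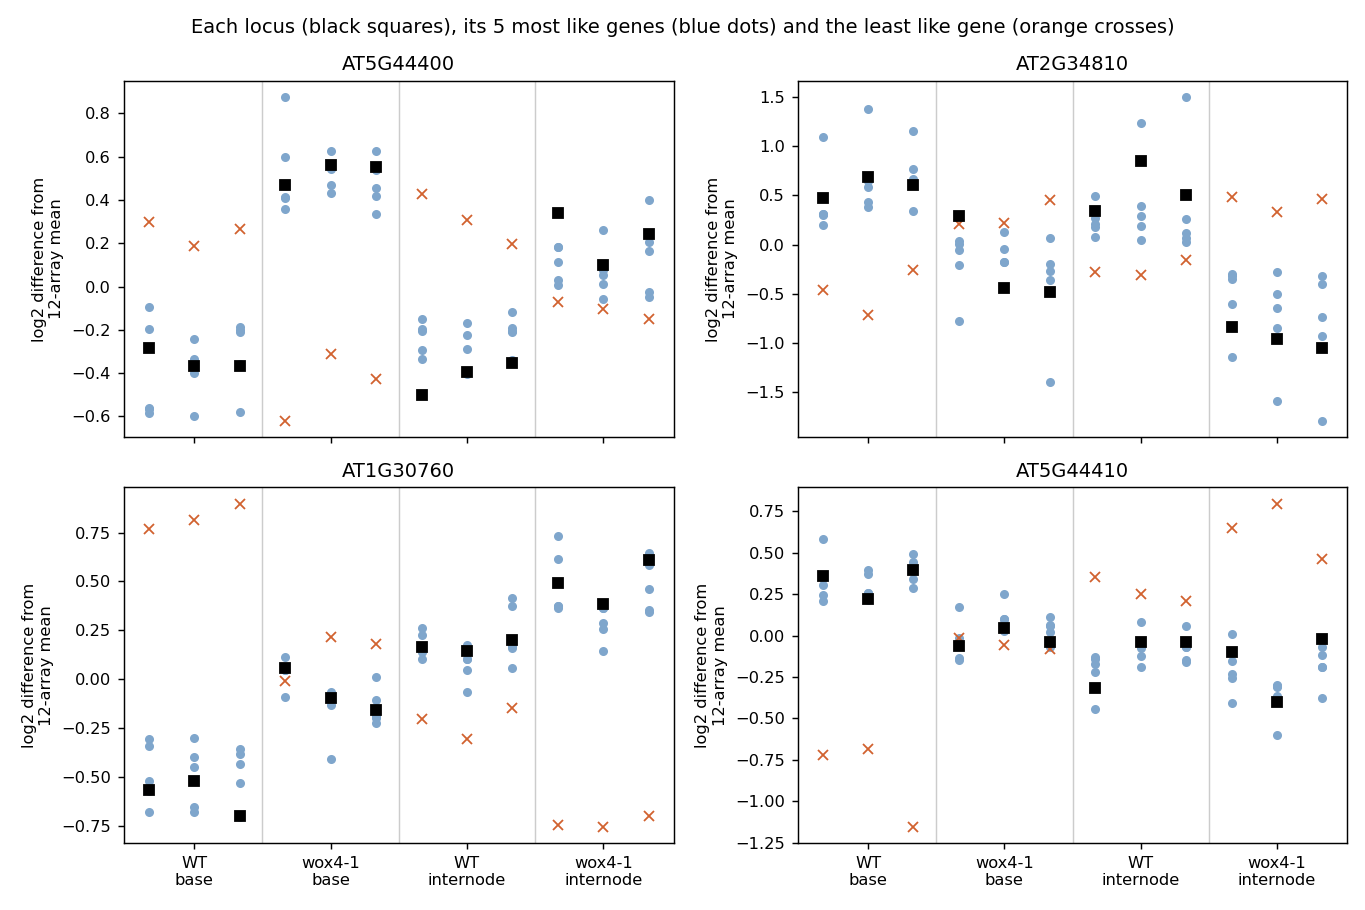
Log2 difference from the 12-array mean on each array for the 4 loci with a called change (black squares), the 5 genes with the highest Pearson's r to each (blue dots) and the gene with the lowest r (orange crosses), grouped by line and position. AT1G30760 and its most like genes step up through the 4 groups, and those around AT2G34810 are lowest in the wox4-1 internode.

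Among the members themselves, the 12-array r was -0.72 between AT2G34810 and AT5G44400 and -0.80 between AT1G30760 and AT5G44410, both set by the group means. With the group means taken off, r over all pairs of members ranged from -0.71 (AT5G44380 and AT4G20860) to 0.79 (AT5G44400 and AT5G44410). Of the genes on either side of AT5G44400, AT5G44410 thus had 0.79 and AT5G44390 had -0.31, and AT5G44440, farther along, had -0.70. AT5G44440 was dim (2.93 to 3.27), with an SD of 0.12 in the wox4-1 internode against 0.0048 to 0.021 in the other groups. On wox4-1 internode replicate 2, the array with the high actin difference, AT5G44400 (9.53) and AT5G44410 (5.52) were both lowest in their group. These r were not computed without that array.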

How the data were processed

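The authors deposited log2 values for the probe sets of Affymetrix ATH1 arrays, made with RMA, per the submitters' processing notes. No version of it is given in the sources used here. They were used without further scaling. Of 22810 probe sets, 64 controls were set aside. Names came from the supplied probe table, in which 13513 probe sets carry 1 gene, 503 several and 8730 are unnamed here, and loci from RefSeq (TAIR10.1) through the gene ID.

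With limma 3.58.1 in R 4.3.3 (lmFit, eBayes), the 12 arrays were fitted together, each group having its own mean. The fit was checked on simulated data. For 5 contrasts, p-values were adjusted by Benjamini-Hochberg. The number of arrays limits the precision, and p-values measure the spread between these pools. Members and lists were chosen with earlier results of these data known.

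Named genes are the measured members, per member the 5 genes with the highest r and the 1 with the lowest, neighbours up to 2 genes away, and called members of the lists (or the smallest p).

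Base and internode arrays of wild type with equal replicate numbers had r of deviations of 0.29 to 0.59 in all 3 pairs, and at most 0.17 with unequal numbers. In wox4-1, 2 of 3 equal-numbered pairs had r over 0.1 (0.14 and 0.24). There base replicate 1 with internode replicate 3 had 0.16, so equal numbers did not stand clearly apart. Between lines, equal-numbered pairs had r of at most 0.06. The labels do not state a pairing. A block within each line was therefore added after the data were seen.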

Additional observations from a re-analysis of the deposited data

How the results depend on the processing

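For the 9 loci, no called change turned its sign in any alternative, 8 calls were lost and 1 was gained in single alternatives, all given above, and 834 values kept their side of the threshold. With a filter on dim probe sets, which keeps means above the median of all probe sets (log2 5.65), AT2G34810, AT5G44360, AT5G44380, AT5G44390, AT5G44440 and AT4G20860 were not tested, so the count of loci called between lines in the internode became 1. Without single arrays, 2 to 3 loci were called with position in wox4-1 and between lines at the base. Over all probe sets, calls between lines at the base numbered 1146, against 342 to 1459 without single arrays, 282 without both wild-type replicate 2 arrays and 403 with only the groups compared. In the internode they numbered 55, against 20 to 110 without single arrays and 25 without both wild-type replicate 2 arrays. Without these arrays 2435 probe sets were called with position in wild type (4485 in all). The difference between genotype effects had 1 call, against 0 to 3 without single arrays, 3 with the replicate block across groups, 5 with the replicate block within each line, 7 with median centring, 5 with the robust option and 0 with the filter on dim probe sets. The replicate blocks changed no call of the 9 loci. Median centring moved the share of higher calls from 46.8% to 67.5% with position in wox4-1 and from 50.1% to 72.4% between lines at the base. Ranked by Spearman's rho, 0 to 3 of the 5 most like genes of a locus remained. No locus had a second probe set to try. Scanner files were not analysed here, so background correction and normalization were not varied.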
